A study of Homo sapiens with 4 samples.

Results

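The genes described here are 45 genes of the replication origin and fork machinery, out of 27685 gene IDs per library. They were chosen by name from textbook roles, with earlier results of these data known, and found by gene ID. All 45 were present in each of the 4 libraries, each on 1 row. RNA was sequenced from the human line NCC-IT-A3, which is an embryonal carcinoma, a tumour of germ cells that resembles early embryonic cells. Of the 4 libraries, 2 came from cells treated with barasertib at 100 nM over 4 days, which blocks the mitotic kinase Aurora B, and 2 from cells given DMSO, the solvent control, in RPMI with serum. The comparison asks how transcripts differed with the inhibitor. Only 1 line, 1 dose and 1 time were measured, and nothing in the labels says whether libraries 1 and 2 were separate cultures. The p-values therefore rest on the spread between these samples alone, and that spread may be technical.

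Replication of a chromosome starts at origins, which are marked by the origin recognition complex. The loading factors CDC6 and CDT1 then place rings of MCM2 to MCM7, the core of the replicative helicase, on the DNA, and geminin binds CDT1 so that no origin is loaded again within a cycle. The kinase CDC7 with its activator DBF4, together with MCM10, CDC45 and the GINS complex, turns the loaded rings into moving helicases. Polymerase alpha with primase starts each strand, polymerases delta and epsilon extend it on the sliding clamp PCNA, which the RFC complex loads, FEN1 and LIG1 join the lagging-strand pieces, and RPA covers the single strands. Aurora B acts later, at mitosis, and cells that cannot finish division can enter a further round of replication.

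Levels are TPM, which are scaled by transcript length and to a fixed library total, so levels can be set against each other between genes but each value is a share of its library. Differences are between means of log2(TPM + 1), barasertib minus DMSO, and fold changes are on that scale. A gene was called when limma gave a Benjamini-Hochberg adjusted p under 0.05 over all 13938 genes whose mean reached 1 TPM. Values with ± are means with the SD of n = 2 libraries. The libraries held an estimated 4.22 to 4.59 Gb of aligned bases, and the mean read depth over a member ranged from 15.8 to 598.5. Of 12 markers of embryonal carcinoma all were above 1 TPM, with summed levels of 7852 and 7564 TPM with barasertib and 6970 and 6820 TPM with DMSO. POU5F1 alone gave means of 3974 TPM with barasertib and 3616 TPM with DMSO. The markers did not move together. POU5F1, NANOG, LIN28A, DNMT3B, DPPA4 and GDF3 were called higher, SOX2 and CRIPTO lower, and the others were not called. All 6 leukocyte, 4 endothelial and 6 yolk sac and trophoblast markers had means under 1 TPM, with summed levels of 0 to 0.756, 0.174 to 0.378 and 0.0376 to 0.816 TPM per library, and PTPRC, CD3E, APOA2 and CGB3 were listed at 0 in all libraries. Of 6 fibroblast markers 5 were under 1 TPM, at sums of 3.59 and 3.21 TPM with barasertib and 1.68 and 2.30 TPM with DMSO. In bulk RNA, fewer cells of a kind and less RNA per cell cannot be told apart, and the same holds for more cells in S phase and more RNA per cell.

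Of the replication genes 18 rose with barasertib, by small amounts, and CDT1 was the one that fell. All 45 passed the filter on low values. The 18 called higher were 40.0%, against 22.0% of all tested genes, and the 1 called lower was 2.22%, against 7.44%. The largest rise was that of MCM10, at 1.48-fold, and CDT1 stood at 0.84-fold, so that no member changed 2-fold. The median difference was 0.19 on the log2 scale, against 0.11 over all tested genes, and 40 of the 45 members (88.9%) had a positive difference, against 66.9% of all tested genes. After median-of-ratios scaling the members' median was 0.05 and 30 of the 45 (66.7%) were positive, against 48.0% of all tested genes. After quantile normalisation it was 0.07 and 35 of the 45 (77.8%) were positive, against 48.7%. The groups did not overlap for 38 members that were higher (84.4%, against 49.1% of all tested genes) and for 4 that were lower (8.89%, against 19.7%). Those 4 were ORC2, CDC6, CDT1 and MCM9, and the 3 members whose groups overlapped were PRIM1, POLD2 and POLE.

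These counts move with the scale of the libraries and with single libraries. Median-of-ratios scaling and quantile normalisation, which both set the typical gene to no change, shift the median difference of all genes from 0.11 to -0.01 and -0.01. Over all genes, 3071 higher and 1037 lower calls become 1534 and 1891 with the first and 1649 and 1590 with the second, and the members' 18 and 1 become 6 and 4, and 9 and 2. The members called higher in TPM and under both of these were MCM2, MCM4, MCM10, DBF4, RFC3 and RPA3, that is 6 of 45 or 13.3%, against 10.0% of all tested genes. CDT1 was called lower under all 3 scalings (2.22% of the members, against 7.05% of all tested genes). With any 1 of the 4 libraries left out, MCM2, MCM4, MCM5, MCM10, DBF4 and RPA3 were still called. The share of all tested genes kept in this way was not counted, so this does not set the members apart. In each of these fits fewer members were called higher than with all 4 libraries, and fewer of all tested genes as well. Across the 45 members Spearman's rho of the difference was -0.13 with mean TPM and -0.04 with the length of the gene, as a description over genes that share the same 4 libraries.

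**Figure D1:**
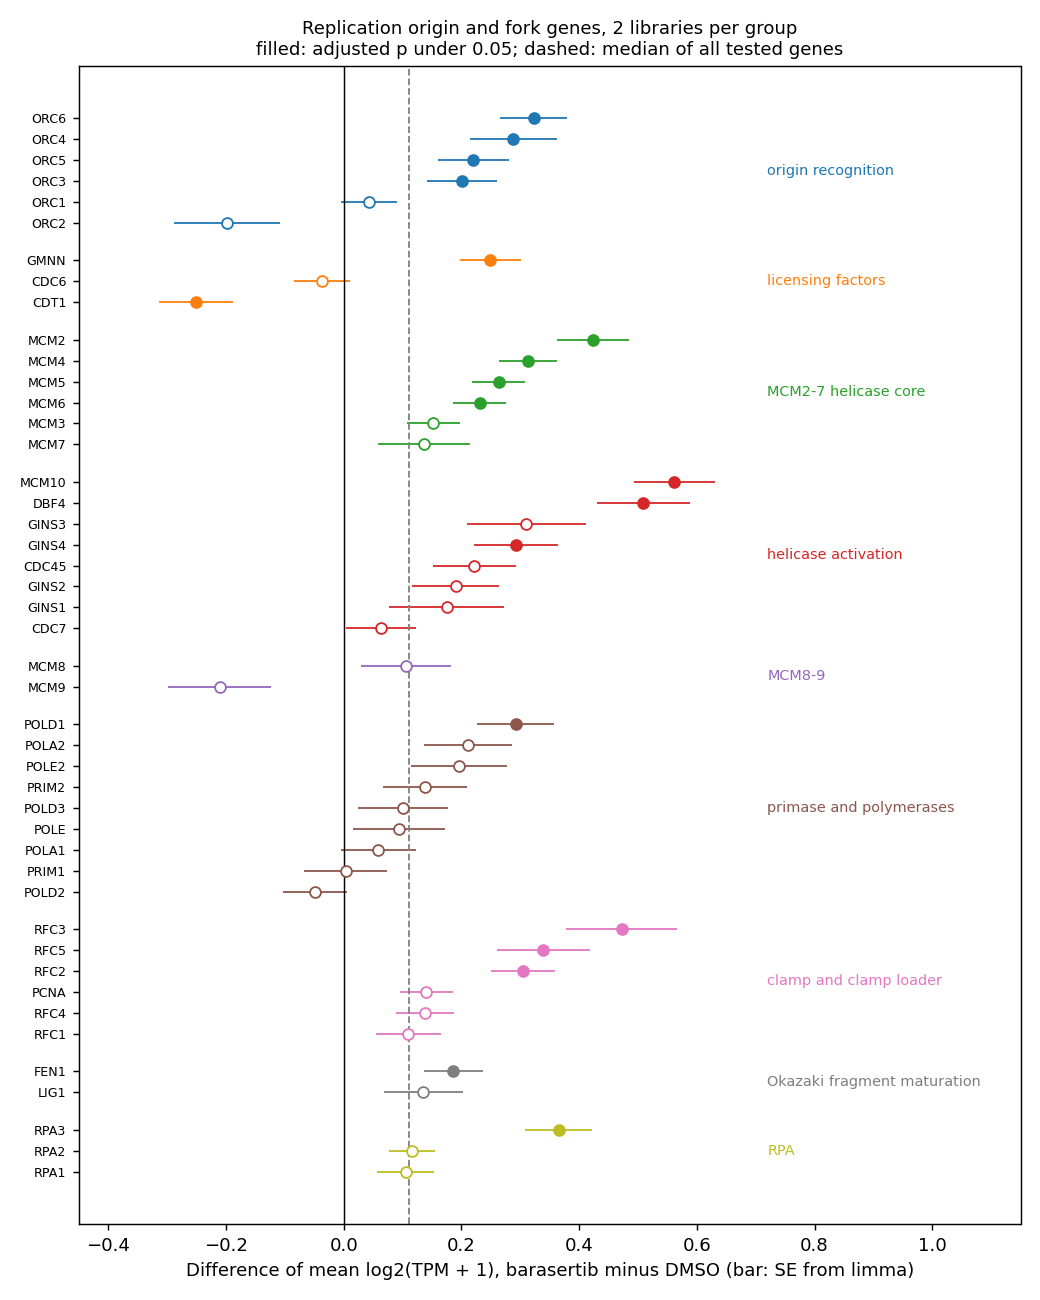
Difference of mean log2(TPM + 1) between barasertib and DMSO (horizontal axis) for the 45 genes, grouped by role, with the SE from limma as bars; filled points have an adjusted p under 0.05 and the dashed line is the median of all tested genes, 0.11. MCM10, DBF4 and RFC3 lie farthest to the right at 0.56, 0.51 and 0.47, and CDT1 lies lowest at -0.25. The primase and polymerase genes lie on both sides of the dashed line, from -0.05 to 0.29.

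The promoters of replication genes are known as targets of the E2F transcription factors, which switch on genes for S phase. RefSeq promoter sequences (GRCh38.p14) matched 39 of the 45 members with 49 windows, several members having more than 1 start. MCM4, MCM5, GINS4, POLD3, RPA2 and RPA3 had no entry. The 250 bases before each start were searched on both strands for the E2F letters TTTCCCGC, TTTGGCGC and TTCCCGCC, the first and last of which can overlap. At least 1 match stood in 16 of the 49 windows, or 32.7%, against 3.9% of 35115 windows over all genes. The CCAAT box (CCAAT) stood in 55.1% of the members' windows against 32.0% of all windows. The letters TTTGAA or TTCGAA, known from promoters of genes that peak in mitosis, stood in 2.0% against 14.3%. Of 15 members with E2F letters 4 were called higher (26.7%) and CDT1 lower (6.67%), shares near the 22.0% and 7.44% of all tested genes. Their median difference was 0.14, and 93.3% of them had a positive difference, against 66.9% of all tested genes. Of the 24 without such letters, 10 were called higher (41.7%), at a median of 0.20 and with 83.3% positive. After median-of-ratios scaling 66.7% of each set were positive, against 48.0% of all tested genes. The difference between these sets was not tested. A match of letters is a description and shows no binding, and a window without them says nothing about the factor.

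The 100 bases before the start are shown for 5 genes that span the results, 5′ to 3′ on the gene's strand with the E2F letters in capitals. CDT1 (chr16:88803689-88803788, plus strand) fell, and GMNN (chr6:24775313-24775412, plus strand, the later of its starts) and RFC3 (chr13:33818049-33818148, plus strand) rose. PRIM1 (chr12:56752324-56752423, minus strand) did not pass the test, and MCM10 (chr10:13161458-13161557, plus strand) had the largest rise and no match in its 250 bases.
CDT1: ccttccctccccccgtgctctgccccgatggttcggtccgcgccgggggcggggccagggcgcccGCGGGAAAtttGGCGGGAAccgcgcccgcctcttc
GMNN: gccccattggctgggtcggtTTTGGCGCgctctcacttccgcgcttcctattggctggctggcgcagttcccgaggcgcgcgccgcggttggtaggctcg
RFC3: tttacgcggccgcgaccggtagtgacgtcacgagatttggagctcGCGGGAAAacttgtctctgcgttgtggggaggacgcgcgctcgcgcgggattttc
PRIM1: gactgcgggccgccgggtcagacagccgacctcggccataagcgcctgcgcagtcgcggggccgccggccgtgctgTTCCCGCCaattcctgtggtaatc
MCM10: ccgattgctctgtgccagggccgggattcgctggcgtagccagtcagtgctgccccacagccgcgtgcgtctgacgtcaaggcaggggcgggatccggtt
In CDT1 the 2 matches begin at positions -35 and -24 relative to the start, both as the reverse complement of the letters given above. Single matches begin at -80 in GMNN, -55 in RFC3 and -24 in PRIM1.

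Of the licensing factors, the loader and its inhibitor moved in opposite directions. CDT1 (gene ID 81620, hg19 chromosome 16 from 88870186 to 88875666), which brings MCM rings to the origin, was at 105 and 97.1 TPM with barasertib and at 125 and 116 TPM with DMSO. Both barasertib libraries lay below both DMSO libraries. CDT1 fell by 0.25 on the log2 scale (SE 0.063, adjusted p = 0.0314), and by 0.39 after median-of-ratios scaling. The CDT1 call was lost without either barasertib replicate or DMSO replicate 1 (adjusted p = 0.0543, 0.122 and 0.127). GMNN (gene ID 51053, chromosome 6 from 24775159 to 24786325), which encodes geminin, was at 89.2 and 90.6 TPM with barasertib and 74.0 and 77.0 TPM with DMSO. The groups were apart by more than their spread, and GMNN rose by 0.25 on the log2 scale (SE 0.052, adjusted p = 0.0174). The GMNN call was lost without those same 3 libraries (adjusted p = 0.0612, 0.0695 and 0.0846) and under the other scalings (adjusted p = 0.0934 after quantile normalisation).

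The ratio of CDT1 to GMNN does not depend on the library scale. It was 1.18 and 1.07 with barasertib and 1.69 and 1.51 with DMSO, or 1.13 ± 0.0753 against 1.60 ± 0.123. Each barasertib library was therefore below each DMSO library, at 0.704 of the DMSO ratio, and the exact permutation test, which cannot go below 0.33 with 2 libraries against 2, gave p = 0.33. CDC6, the ATPase that works with CDT1 to load the rings, was at 131 and 136.5 TPM with barasertib and 137 and 138 TPM with DMSO. CDC6 differed by -0.04 on the log2 scale (SE 0.048, adjusted p = 0.588), and it was called lower after median-of-ratios scaling, by 0.17 (adjusted p = 0.0435). Summed, the 3 licensing factors stood at 325 ± 0.787 TPM with barasertib and 333 ± 3.17 TPM with DMSO.

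The origin recognition complex was uneven. ORC1, the subunit whose protein comes and goes with the cell cycle, was the most abundant at 98.4 and 97.0 TPM with barasertib and 95.1 and 94.5 TPM with DMSO. The groups did not overlap, but ORC1 did not pass the test (difference 0.04, SE 0.048, adjusted p = 0.528). ORC6, the small subunit outside the ring of the others, was at 59.2 and 60.3 TPM with barasertib and 46.5 and 48.6 TPM with DMSO. ORC6 had the largest rise of the complex, 0.32 (SE 0.057, adjusted p = 0.0103), which was lost without barasertib replicate 2 (adjusted p = 0.0514) and after median-of-ratios scaling.

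ORC4, at 27.1 and 29.0 TPM with barasertib and 22.2 and 23.5 TPM with DMSO, rose by 0.29 (adjusted p = 0.0324). The ORC4 span overlaps ACVR2A and MBD5 on the other strand over 431 and 594 bases. ACVR2A stood at 12.4 and 10.8 TPM with barasertib and 7.52 and 8.85 TPM with DMSO, and MBD5 at a mean of 4.3 TPM. ORC5, at 39.5 and 40.4 TPM against 34.4 and 33.9 TPM, rose by 0.22 (adjusted p = 0.0387). ORC3, at 87.0 and 94.0 TPM against 79.6 and 77.4 TPM, rose by 0.20 (adjusted p = 0.0490). These 3 subunits of the ring were higher in both barasertib libraries, yet the calls of ORC3, ORC4 and ORC5 were each lost when any single library was left out and under both other scalings. ORC2 was lower in both barasertib libraries, at 40.8 and 48.2 TPM with barasertib and 49.5 and 52.6 TPM with DMSO, and did not pass the test in TPM (difference -0.20, SE 0.090, adjusted p = 0.147). It passed after median-of-ratios scaling (adjusted p = 0.0427). Of the 6 subunits 4 were thus called higher in TPM (66.7%, against 22.0% of all tested genes) and 0 under all 3 scalings. The level of ORC1 relative to the mean of ORC2 to ORC5 was 1.93 ± 0.136 with barasertib and 2.03 ± 0.0220 with DMSO, and these groups overlapped. Of the called subunits, 1 was left without barasertib replicate 1, DMSO replicate 1 or DMSO replicate 2 and 0 without barasertib replicate 2. Summed over the complex, 360.4 ± 11.9 TPM with barasertib stood against 329 ± 2.23 TPM with DMSO.

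**Figure D2:**
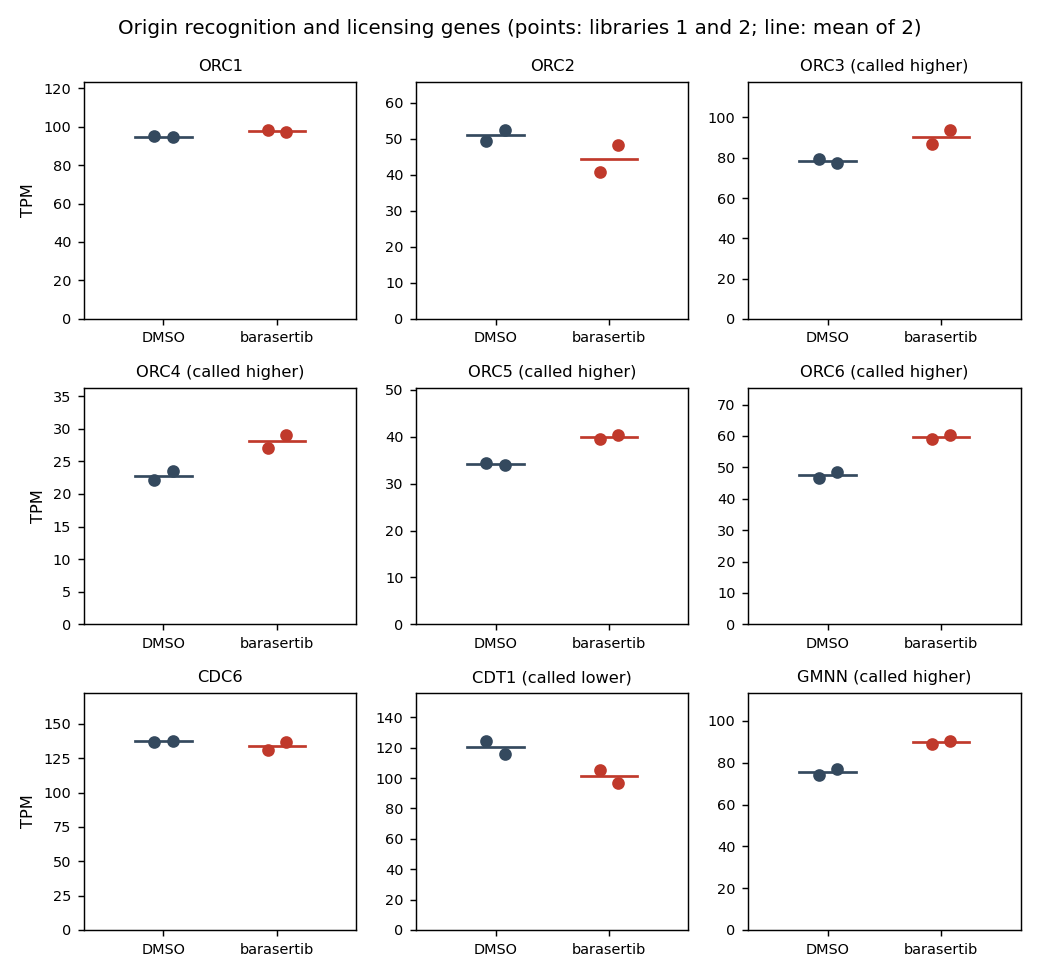
TPM (vertical axis, from 0) of the 6 origin recognition genes and of CDC6, CDT1 and GMNN in each DMSO and barasertib library, with a line at the mean of 2 libraries. CDT1 drops from 120.5 to 101 TPM on average and GMNN climbs from 75.5 to 89.9 TPM, while ORC1 and CDC6 stay within a few TPM of the DMSO level.

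In the helicase core 4 of the 6 genes rose, MCM2 most. MCM2 (gene ID 4171, hg19 chromosome 3 from 127317200 to 127341278), a ring subunit that also binds histones, was at 162 and 153 TPM with barasertib and 122 and 112.5 TPM with DMSO. MCM2 rose by 0.42 (SE 0.061, adjusted p = 0.00538) and kept its call under all 3 scalings and without any 1 library. MCM4, part of the catalytic trimer with MCM6 and MCM7, was at 126 and 126 TPM with barasertib and 99.4 and 104 TPM with DMSO. It rose by 0.31 (SE 0.049, adjusted p = 0.00717), also under all 3 scalings and without any 1 library. The MCM2 and MCM4 calls were lost with no filter on low values. MCM5, which forms the gate of the ring with MCM2, rose from 126 and 127 TPM to 153 and 151 TPM, a difference of 0.26 (SE 0.045, adjusted p = 0.00914). This call was kept without any 1 library, but not after median-of-ratios scaling.

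MCM6 rose from 127 and 130 TPM to 150.5 and 152 TPM, by 0.23 (SE 0.045, adjusted p = 0.0139), a call lost without either barasertib replicate or DMSO replicate 1 and under both other scalings. MCM3 was at 191 and 189 TPM with barasertib and 174 and 168 TPM with DMSO, and at 0.15 it lay just outside the threshold (SE 0.045, adjusted p = 0.0505). MCM7 was the subunit with the widest spread, at 213 and 183 TPM with barasertib and 176 and 182 TPM with DMSO, and did not pass the test (0.14, SE 0.078, adjusted p = 0.227). The span of MCM7 also holds the microRNA genes MIR25 and MIR93, and 434 bases of it overlap AP4M1 on the other strand. Of the 6 subunits 4 were called higher (66.7%, against 22.0% of all tested genes). In all 6 both barasertib libraries lay above both DMSO libraries, as for 49.1% of all tested genes. After median-of-ratios scaling the differences of MCM3 and MCM7 were 0.017 and 0.003. Summed, the core stood at 975 ± 30.8 TPM with barasertib and 824 ± 1.87 TPM with DMSO, a ratio of 1.18.

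Shares of the subunits within that sum do not depend on the library scale. MCM2 made up 16.3% and 16.0% of the MCM2 to MCM7 messages with barasertib and 14.8% and 13.7% with DMSO, without overlap. MCM3 made up 19.5% ± 0.462 with barasertib and 20.7% ± 0.523 with DMSO, again without overlap and in the other direction. MCM4 was at 13.0% ± 0.408 against 12.3% ± 0.404, the lowest share in both groups. The shares of MCM5 (15.6% and 15.3%), MCM6 (15.5% and 15.6%) and MCM7 (20.3% and 21.8%), given as barasertib and DMSO means, overlapped between the groups.

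The 2 largest rises among all members were those of MCM10 and DBF4, both factors that start the helicase. MCM10 (gene ID 55388, hg19 chromosome 10 from 13203554 to 13253104), which is needed to activate the assembled helicase, was at 42.0 and 45.7 TPM with barasertib and 29.2 and 29.5 TPM with DMSO. Its rise of 0.56 (SE 0.069, adjusted p = 0.00315), a fold change of 1.48, lay at percentile 91.1 of the differences of all tested genes. DBF4 (gene ID 10926, chromosome 7 from 87505544 to 87538856), the activator of the kinase CDC7, was at 31.6 and 32.9 TPM with barasertib and 21.1 and 23.7 TPM with DMSO. It rose by 0.51 (SE 0.079, adjusted p = 0.00693), or 1.42-fold. Both calls were kept under all 3 scalings and without any 1 library, and both were lost with no filter on low values. The DBF4 span overlaps SLC25A40 on the other strand over 149 bases, and SLC25A40 stood at a mean of 11.3 TPM.

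The catalytic partner CDC7 was at 45.6 and 47.8 TPM with barasertib and 45.1 and 44.2 TPM with DMSO, and did not pass the test (0.06, SE 0.060, adjusted p = 0.463). The ratio of DBF4 to CDC7 was 0.694 and 0.688 with barasertib and 0.469 and 0.535 with DMSO. Both barasertib libraries were above both DMSO libraries, at 1.38 times the DMSO ratio (exact permutation p = 0.33, the smallest possible here).

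**Figure D3:**
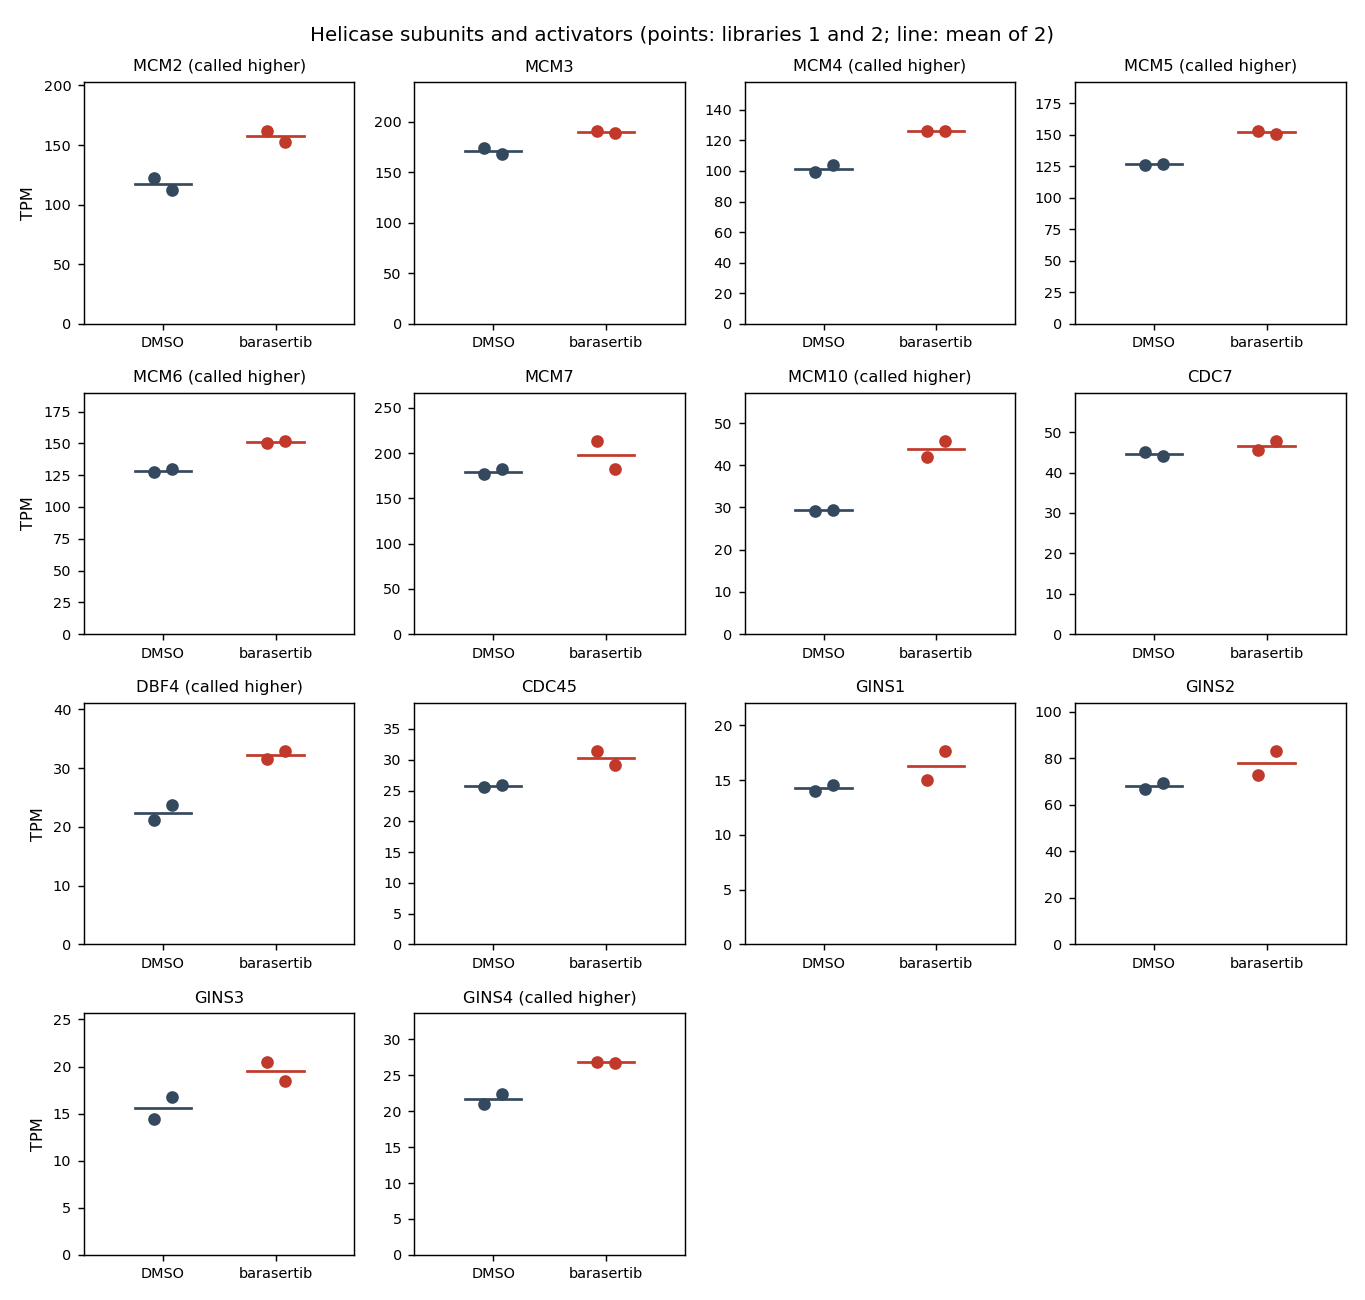
TPM (vertical axis, from 0) of the helicase core genes MCM2 to MCM7 and of the activating factors in each library, with a line at the mean of 2 libraries. MCM10 (29.4 to 43.9 TPM) and DBF4 (22.4 to 32.3 TPM) show the widest gaps for their level, and CDC7 (44.7 to 46.7 TPM) shows almost none.

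The GINS complex and CDC45 join the MCM ring to make the working helicase, and of their 5 genes 1 was called. With MCM10, DBF4 and CDC7, 3 of 8 were called higher (37.5%, against 22.0% of all tested genes). GINS4, at 26.9 and 26.7 TPM with barasertib and 20.9 and 22.5 TPM with DMSO, rose by 0.29 (SE 0.071, adjusted p = 0.0276). The GINS4 call was lost when any single library was left out, with adjusted p = 0.0504 at the lowest, and under both other scalings. CDC45 was at 31.4 and 29.1 TPM with barasertib and 25.5 and 26.0 TPM with DMSO, short of the threshold (0.22, SE 0.070, adjusted p = 0.0594). GINS3, at 20.5 and 18.5 TPM against 14.4 and 16.7 TPM, differed by as much as GINS4 but with a wider spread (0.31, SE 0.101, adjusted p = 0.0640). GINS2 and GINS1 differed by 0.19 and 0.18 (adjusted p = 0.102 and 0.220). For GINS1 to GINS4 and CDC45, both barasertib libraries lay above both DMSO libraries, as for 49.1% of all tested genes. The relatives MCM8 and MCM9, which form a helicase of their own in recombination repair, did not pass the test. MCM8 was at 28.9 ± 1.26 TPM with barasertib and 26.8 ± 1.64 TPM with DMSO. MCM9 was at 13.8 and 12.3 TPM with barasertib and 15.3 and 15.2 TPM with DMSO (-0.21, adjusted p = 0.121), and passed as lower under both other scalings (adjusted p = 0.0488 after quantile normalisation). The MCM9 span shares 15095 bases with ASF1A on the other strand, which was higher with barasertib, and the sources do not give whether counting used strand.

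Among the groups of 3 or more genes, the primase and polymerase genes had the lowest median difference after the licensing factors. Of 9, only POLD1 was called higher (11.1%, against 22.0% of all tested genes). Their median difference was 0.10, close to the 0.11 of all tested genes, as was the 0.12 of the RPA genes. POLD1, the catalytic subunit of polymerase delta, was at 60.4 and 55.2 TPM with barasertib and 47.6 and 46.3 TPM with DMSO. It rose by 0.29 (SE 0.066, adjusted p = 0.0226), a call lost without barasertib replicate 1, DMSO replicate 1 or DMSO replicate 2 and under both other scalings. POLA1, the catalytic subunit of polymerase alpha, was at 36.0 and 38.1 TPM with barasertib and 35.1 and 35.9 TPM with DMSO (0.06, adjusted p = 0.524). POLE, the catalytic subunit of polymerase epsilon, was at 33.4 and 30.2 TPM against 28.7 and 30.7 TPM (0.09, adjusted p = 0.394), and its groups overlapped.

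PRIM1, the primase that lays the RNA primer, had the smallest difference of all members, 0.00 (SE 0.070, adjusted p = 0.978), at 60.0 and 67.4 TPM with barasertib and 63.2 and 63.7 TPM with DMSO. POLD2, an accessory subunit of polymerase delta and the most abundant of these genes, was at 166 and 154 TPM with barasertib and 168 and 162 TPM with DMSO (-0.05, adjusted p = 0.529). The accessory subunits POLA2, POLE2, PRIM2 and POLD3 were higher in both barasertib libraries by 0.21, 0.20, 0.14 and 0.10 and did not pass the test (adjusted p = 0.0806, 0.119, 0.196 and 0.352). The ratio of POLA1 to POLD1 was 0.596 and 0.691 with barasertib and 0.737 and 0.776 with DMSO, so that the libraries did not overlap. The log2 ratio of these means, -0.23, became -0.13 without barasertib replicate 1, and the exact permutation p was 0.33, the smallest possible. The ratio of POLA1 to POLE was 1.17 ± 0.129 with barasertib and 1.20 ± 0.0359 with DMSO and overlapped. Summed over the 9 genes, 465 ± 5.86 TPM with barasertib stood against 444 ± 3.86 TPM with DMSO, a log2 ratio of 0.07 that became -0.07 after median-of-ratios scaling.

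In the clamp loader 3 of the 4 small subunits rose. RFC3 (gene ID 5983, hg19 chromosome 13 from 34392206 to 34540695) was at 61.1 and 67.5 TPM with barasertib and 42.4 and 49.9 TPM with DMSO. The groups did not overlap, and RFC3 rose by 0.47 (SE 0.095, adjusted p = 0.0153). It was called under all 3 scalings, but not without barasertib replicate 1 or 2 (adjusted p = 0.0512 and 0.0862). RFC5, at 36.8 and 41.3 TPM against 29.8 and 31.5 TPM, rose by 0.34 (SE 0.079, adjusted p = 0.0241), a call lost without barasertib replicate 2 or DMSO replicate 1 and under both other scalings. RFC2, at 117 and 121 TPM against 93.4 and 98.9 TPM, rose by 0.31 (SE 0.054, adjusted p = 0.0103), a call lost without barasertib replicate 2 (adjusted p = 0.0556) and after median-of-ratios scaling. RFC4, the most abundant small subunit, was at 183 and 191 TPM with barasertib and 166 and 174 TPM with DMSO and did not pass the test (0.14, adjusted p = 0.0834).

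RFC1, the large subunit of the loader, was at 50.2 and 49.0 TPM with barasertib and 46.0 and 45.8 TPM with DMSO (0.11, adjusted p = 0.189). Set against the mean of RFC2 to RFC5, RFC1 stood at 0.485 ± 0.0280 with barasertib and 0.536 ± 0.0270 with DMSO, without overlap. The log2 ratio of these means, -0.14, became -0.09 without barasertib replicate 2 and also without DMSO replicate 1. PCNA, the clamp itself, was at 195 and 198 TPM with barasertib and 174.5 and 181 TPM with DMSO, short of the threshold (0.14, SE 0.045, adjusted p = 0.0623). Of the 3 clamp loader calls, 0 were left without barasertib replicate 2. For the 6 genes of clamp and loader both barasertib libraries lay above both DMSO libraries, as for 49.1% of all tested genes. After median-of-ratios scaling the difference of PCNA was 0.01.

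**Figure D4:**
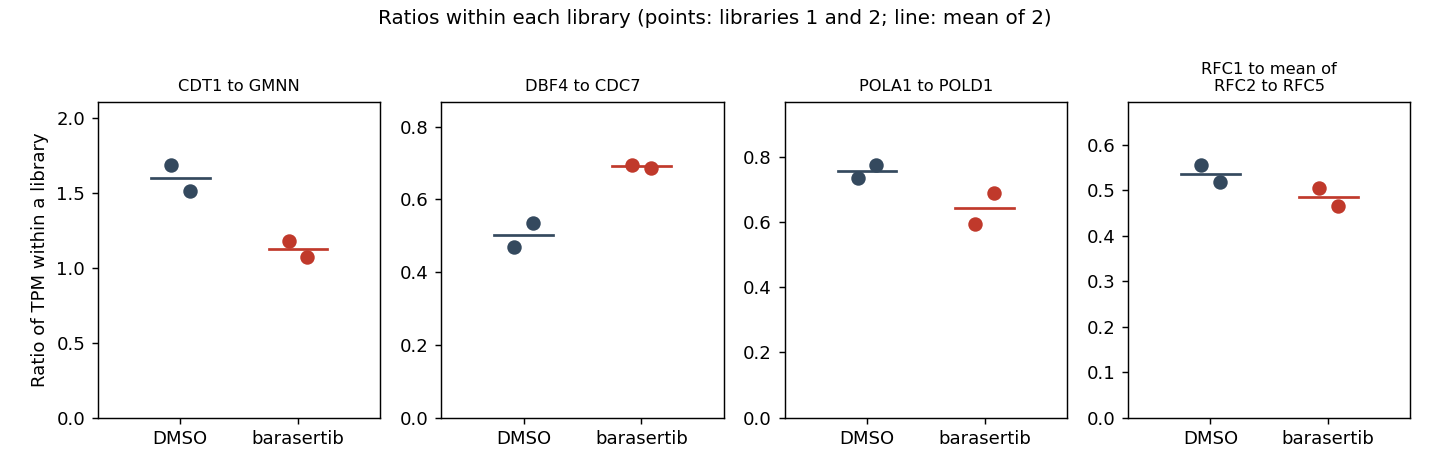
Ratios of TPM between pairs of members within each library (vertical axes from 0), which do not depend on library scaling, with a line at the mean of 2 libraries. CDT1 to GMNN goes from 1.60 with DMSO to 1.13 with barasertib and DBF4 to CDC7 from 0.502 to 0.691, and the 2 libraries of each group stay apart from those of the other in all 4 panels.

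Of the 5 genes of lagging-strand joining and single-strand cover, FEN1 and RPA3 rose. FEN1, the flap nuclease that trims each lagging-strand piece, was at 121 and 125 TPM with barasertib and 106 and 110.1 TPM with DMSO. It rose by 0.19 (SE 0.050, adjusted p = 0.0381), a call lost when any single library was left out and under both other scalings. LIG1, the ligase that seals the pieces, was at 40.0 and 38.8 TPM against 37.2 and 34.5 TPM (0.14, adjusted p = 0.178). Among the RPA subunits, RPA3 (gene ID 6119, hg19 chromosome 7 from 7676194 to 7758238), the smallest, was at 50.3 and 51.5 TPM with barasertib and 39.3 and 39.3 TPM with DMSO. It rose by 0.37 (SE 0.057, adjusted p = 0.00694) and was called in all 14 alternative settings. The RPA3 span overlaps UMAD1 on the other strand over 77972 bases, and UMAD1 stood at 17.9 and 19.5 TPM with barasertib and 16.1 and 17.8 TPM with DMSO.

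RPA2, the most abundant of all 45 members, was at 326 and 331 TPM with barasertib and 304 and 302 TPM with DMSO. RPA2 did not pass the test (0.12, SE 0.039, adjusted p = 0.0690). RPA1, the large subunit that holds most of the DNA contacts, was at 153 and 160.1 TPM against 144 and 147 TPM and did not pass either (0.10, adjusted p = 0.152). After median-of-ratios scaling the differences of RPA1 and RPA2 were -0.03 and -0.02. RPA3 was thus the one subunit of the 3 that was called, and the difference between it and the others was not tested.

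**Figure D5:**
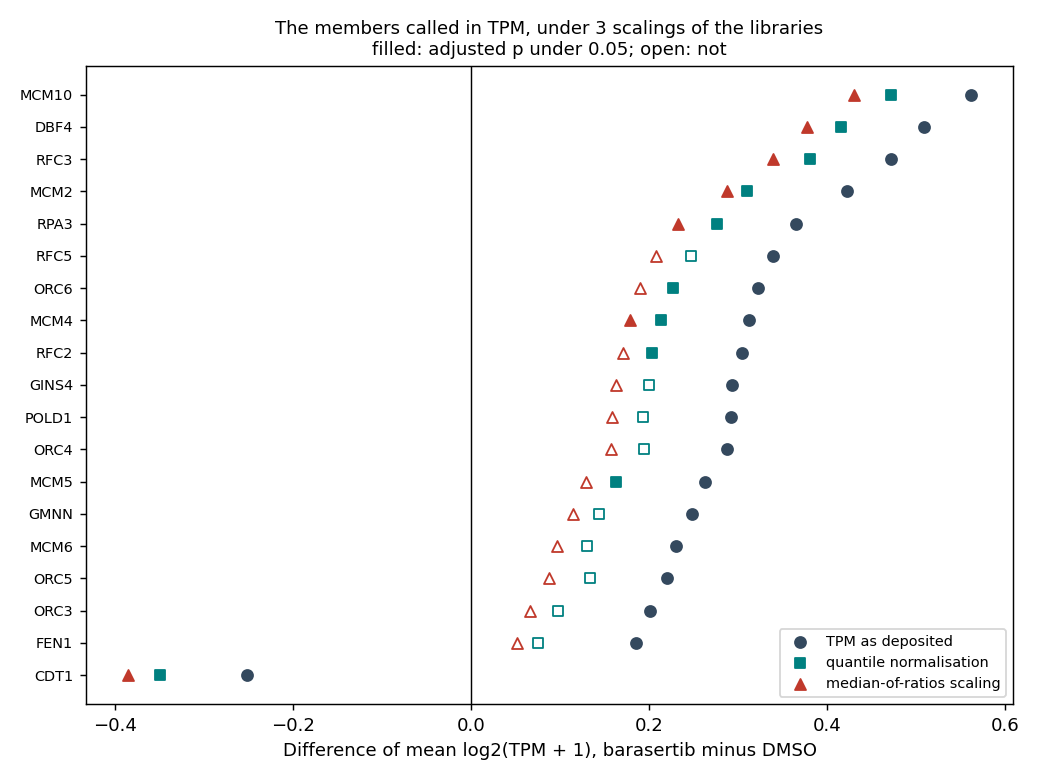
Difference of mean log2(TPM + 1), barasertib minus DMSO (horizontal axis), of the 19 members called in TPM, with TPM as deposited, quantile normalisation and median-of-ratios scaling; filled symbols have an adjusted p under 0.05. Both other scalings shift every gene to the left, 6 higher members and CDT1 stay filled throughout, and no called member changes sign.

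Around these members, 83 further genes of the pathway were counted by role, all of them tested. Of these, 34 were called higher (41.0%) and 1 lower (1.20%) in TPM, against 22.0% and 7.44% of all tested genes. Under all 3 scalings 16 of the 83 were higher and 1 lower, against 10.0% and 7.05% of all tested genes. Without barasertib replicate 1 or 2, 16 and 18 were higher, and without DMSO replicate 1 or 2, 23 and 26. The median difference of the 83 genes was 0.17, against 0.11 over all tested genes. After median-of-ratios scaling it was 0.04, against -0.01. Origin firing regulators gave 3 of 10 higher (30.0%), among them RECQL4, a helicase that takes part in origin firing, from 25.9 and 25.4 to 42.3 and 36.2 TPM. RECQL4 rose by 0.59 (SE 0.087, adjusted p = 0.00596). TICRR (treslin), which brings CDC45 to the origin, was at 24.0 and 22.9 TPM with barasertib and 18.5 and 17.8 TPM with DMSO. TICRR rose by 0.35 (adjusted p = 0.0165), a call lost without either barasertib replicate or DMSO replicate 2 and under both other scalings.

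The list for CDT1 turnover held 7 genes of ubiquitin ligases that act on CDT1 protein, and FBXO5, an inhibitor of the APC/C, the ligase that acts on geminin. Of these 8, 4 were called higher (DTL, SKP1, SKP2 and CUL1), a larger share than the 22.0% of all tested genes. Under all 3 scalings 2 were called, SKP1 and CUL1, against 10.0% of all tested genes. The SKP2 call (0.22, adjusted p = 0.0327) was lost under both other scalings and when any single library was left out. FBXO5 did not pass the test (0.26, adjusted p = 0.121). DTL, which recruits CDT1 bound to PCNA to its ubiquitin ligase, was at 49.9 and 53.9 TPM with barasertib and 40.6 and 40.3 TPM with DMSO. DTL rose by 0.35 (SE 0.064, adjusted p = 0.0114), a call lost without barasertib replicate 2 and after median-of-ratios scaling (adjusted p = 0.0517). SKP1, a common subunit of SCF ubiquitin ligases, rose from 265.5 and 274 to 350.0 and 356 TPM (0.39, SE 0.041, adjusted p = 0.00208). These are message levels, and CDT1 protein was not measured.

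Fork protection and checkpoint genes gave 2 of 11 higher (18.2%, under the share of all tested genes), TIPIN (0.35, adjusted p = 0.0301) and CLSPN (0.25, adjusted p = 0.0285), partners in the complex that couples fork and checkpoint, and neither passed under all 3 scalings. The TIPIN call was lost without either barasertib replicate or DMSO replicate 1, and the CLSPN call when any single library was left out. Of 7 other polymerase and clamp loader subunits limma called 0, with 0 higher and 1 lower at an unadjusted p under 0.05. The lowest p was that of POLD4, the smallest subunit of polymerase delta, at 29.1 and 14.7 TPM with barasertib and 35.0 and 34.1 TPM with DMSO (-0.71, SE 0.277, adjusted p = 0.103). POLD4 was called lower without barasertib replicate 1 (-1.18, adjusted p = 0.00988) and stood at -0.24 without barasertib replicate 2, and its adjusted p ran from 0.00988 to 0.516 over the alternatives. CHTF8, a partner of an alternative clamp loader and named after its values were seen, differed more and in the other direction. CHTF8 was at 96.0 and 95.1 TPM with barasertib and 22.8 and 81.7 TPM with DMSO (1.12, SE 0.517, adjusted p = 0.152). The low DMSO replicate 1 sets that value, since CHTF8 stood at 0.22 without it (adjusted p = 0.0788) and was called higher, at 2.02, without DMSO replicate 2 (adjusted p = 1.59e-05), within a range of 1.59e-05 to 0.624 over the alternatives.

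Genes of primer removal and topoisomerases gave 6 of 8 higher (75.0%, against 22.0% of all tested genes), 3 of them under all 3 scalings. RNASEH2B, a subunit of the nuclease that removes RNA from DNA, rose from 11.4 and 11.8 to 21.5 and 22.2 TPM (0.86, SE 0.075, adjusted p = 0.00122). TOP2A, which untangles chromosomes in late S phase and mitosis, rose from 132 and 127 to 191 and 203 TPM (0.60, SE 0.052, adjusted p = 0.00122). Of 11 genes of chromatin assembly behind the fork 6 rose (54.5%), 2 of them under all 3 scalings. These 2 were the histone chaperones ASF1A and CHAF1A. ASF1A rose from 20.4 and 22.5 to 30.0 and 30.7 TPM (0.48, adjusted p = 0.00683). CHAF1A rose from 54.8 and 49.9 to 72.9 and 69.1 TPM (0.43, adjusted p = 0.00723). The CHAF1A call was lost without barasertib replicate 1. The counts moved with single libraries. Without barasertib replicate 1, barasertib replicate 2, DMSO replicate 1 or DMSO replicate 2, the genes called higher numbered 1, 1, 2 and 1 among the firing regulators and 0, 0, 0 and 1 among the fork protection genes. In the same order they numbered 3, 2, 4 and 3 in CDT1 turnover, 5, 3, 6 and 5 in primer removal and 1, 3, 2 and 4 in chromatin assembly. These lists were written by role, with earlier results of these data known, and no list was tested as a whole.

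Of 18 genes of the E2F and RB family 5 rose (27.8%) and 1 fell (5.56%), shares near the 22.0% and 7.44% of all tested genes. MYBL2, which drives late cell cycle genes, rose from 108 and 106 to 153 and 140.3 TPM (0.45, SE 0.058, adjusted p = 0.00383), and E2F3 from 15.4 and 15.8 to 22.1 and 21.4 TPM (0.46, SE 0.072, adjusted p = 0.00721). E2F5, named after its values were seen, was at 38.0 and 38.6 TPM with barasertib and 43.9 and 48.3 TPM with DMSO. The lowest mean read depth in a library was 1.72 for E2F3 and 8.02 for E2F5, low for their TPM. For comparison, E2F6, at 28.7 and 28.8 TPM with barasertib, had a lowest depth of 43.75. E2F5 fell by 0.26 (SE 0.069, adjusted p = 0.0371), and its call was lost without either barasertib replicate or DMSO replicate 2. Of 10 cyclins and kinases of the step from G1 to S 8 rose (80.0%, against 22.0% of all tested genes). Under all 3 scalings 5 of them were called, and the median difference of the 10 was 0.45. Without barasertib replicate 1 or DMSO replicate 1, 3 and 5 of these cyclins and kinases were called, and 3 of the E2F and RB genes rose without either barasertib replicate. CCND1 (cyclin D1) rose from 63.7 and 57.3 to 123 and 119.8 TPM (1.00, SE 0.066, adjusted p = 0.000571). CCNA2 (cyclin A2), which acts in S phase and G2, rose from 69.8 and 68.8 to 111 and 113 TPM (0.68, SE 0.050, adjusted p = 0.000733). AURKB, the drug target, was at 105 and 106 TPM with barasertib and 64.9 and 68.0 TPM with DMSO and rose by 0.66 (adjusted p = 0.00097), and since the drug blocks the kinase, its message does not check the treatment. Cell cycle phase was not measured, and its part in the rise of the replication genes was not tested.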

How the data were processed

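RNA-seq of 2 barasertib and 2 DMSO libraries was analysed. Per the submitters' processing notes, HISAT2, StringTie and hg19 were used, and the sources used here do not give versions, options or the use of strand in counting. The kit marks strand, per the labels' protocols. Per the file headers, the deposited values are TPM, FPKM and coverage (a signal, the mean depth over a gene), with no counts. Aligned bases were estimated as the largest ratio of coverage to FPKM. Rows were summed per gene ID. Of 27685 IDs, 27559 matched a RefSeq symbol (GRCh38.p14, names only), and gene positions were taken from the deposited hg19 tables.

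The test was limma 3.58.1 (R 4.3.3) with group alone in the model of log2(TPM + 1), a variance trend over expression level (degrees of freedom 2 residual, 4.09 prior) and Benjamini-Hochberg adjustment over 13938 genes, two-sided. In simulated data with 200 of 13938 genes changed, the fit called 43.6% of 1.5-fold changes and 78.2% of 2-fold changes. Of its calls 4.21% were unchanged genes. The changed genes were drawn from all expression levels, and the real data gave 3071 higher and 1037 lower calls. These rates therefore do not carry over to the members. The largest change of a member was 1.48-fold. Members that did not pass the test may still differ. Sums and ratios had two-sided exact permutation tests over libraries. The members and lists were chosen with earlier results of these data known. Any member could be named, and of each further list the 2 called genes with the largest change, or the gene with the smallest p. The alternatives were no filter, a minimum of 5 TPM, pseudocounts of 0.1 and 5, FPKM, median-of-ratios scaling, quantile normalisation, robust moderation, no trend, a block for replicate number, and each library left out. Protein sequences were not analysed here.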

Additional observations from a re-analysis of the deposited data

How the results depend on the processing

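Values below are for alternatives to limma on TPM. Members called higher numbered 18, against 2 with no filter, 6 with median-of-ratios scaling, 9 with quantile normalisation, 8 with no mean-variance trend and 8 to 13 with 1 library left out. Those called lower numbered 1, against 0, 4, 2 and 0 in the same order and 0 to 1 with 1 library left out. Over all genes 3071 higher and 1037 lower became 435 and 160 with no filter, 1534 and 1891 with median-of-ratios scaling and 1649 and 1590 with quantile normalisation. With no trend 674 were lower, and with 1 library left out 1365 to 2181 were higher and 601 to 699 lower.

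For the subgroups, with no filter 1 helicase core gene and 0 of the other subgroups, RPA aside, were higher. With median-of-ratios scaling the higher calls were 0 in origin recognition (1 lower), 0 in licensing (2 lower), 2 in the helicase core, 0 in the polymerases, 1 in clamp and loader and 0 in lagging-strand joining, and 1 of MCM8 and MCM9 was lower, as with quantile normalisation. Quantile normalisation left 1 in origin recognition, and with no trend 1 stood there and 1 in clamp and loader, while both left 0 in licensing, polymerases and lagging-strand joining. With FPKM 2 origin recognition genes and 0 joining genes were higher. Licensing had 0 lower with no filter or no trend. With 1 library left out the ranges were 0 to 1 in origin recognition, 0 to 1 in licensing in each direction, 0 to 1 in the polymerases, 0 to 3 in clamp and loader and 0 to 0 in joining.

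Further pathway genes called higher (34) became 5 with no filter, 16 with median-of-ratios scaling, 20 with quantile normalisation, 22 with no trend and 16 to 26 with 1 library left out. Those called lower (1) became 0 with no filter or no trend, 2 with a 5 TPM minimum or FPKM, 9 with median-of-ratios scaling, 5 with quantile normalisation, 3 with robust moderation and 0 to 2 with 1 library left out. The replicate numbers share only a label (correlation of deviations 0.0229), and with the replicate block 17 members were higher and 1 lower, with 32 and 5 of the pathway genes and 3218 and 1080 of all genes. The block also called POLD4 lower (-0.71, adjusted p = 0.0469).

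Log2 ratios of sums under median-of-ratios scaling were 0.025 for all members, -0.003 for origin recognition and -0.067 for the polymerases, which both changed sign, -0.17 for licensing, 0.11 for the helicase core, 0.14 for activation, -0.14 for MCM8 and MCM9, 0.074 for clamp and loader, 0.04 for joining and 0 for RPA. With FPKM they were 0.14 for all members, -0.06 for licensing, 0.045 for the polymerases, 0.15 for joining and 0.11 for RPA. With 1 library left out they ran from 0.21 to 0.27 for the helicase core, -0.045 to 0.04 for MCM8 and MCM9 and 0.12 to 0.15 for RPA, and the log2 ratio ran from 0.37 to 0.56 for DBF4 to CDC7, -0.148 to -0.005 for ORC1 to the other subunits, -0.15 to 0.075 for POLA1 to POLE, -0.344 to -0.131 for POLA1 to POLD1, -0.204 to -0.086 for RFC1 to the small subunits and 0.13 to 0.24 for the MCM2 share. The cause of these moves was not tested. Leaving out 1 library leaves 1 sample in a group, which is then assumed to vary like the others.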
